A study of Mus musculus with 30 samples.

Results

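The 9 transcripts described here are those of Krt7, Krt8, Krt18, Krt19 and Epcam, 5 genes of epithelia, and Map2, Stmn2, Dcx and Tubb3, 4 genes of neurons. They are 9 of the 36047 genes to which the quantified targets were matched, and they were looked up in all 30 libraries of NIH3T3-CG, a line of mouse embryonic fibroblasts whose suffix the labels do not explain. They were chosen by their estimated counts in these same libraries, so their levels are given as a description without a test. The question is which libraries hold epithelial or neuronal transcripts that a fibroblast line is not known for.

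Keratins are the intermediate filament proteins of epithelial cells, built as pairs of a type I and a type II chain. Krt8 with Krt18 is the pair of simple epithelia, Krt7 and Krt19 are the type II and type I chains of ducts and glands, and Epcam is a surface glycoprotein of epithelial cells. Map2, Stmn2, Dcx and Tubb3 act on the microtubules of neurons, as a dendritic microtubule-associated protein, a stathmin of growing axons, the doublecortin of migrating young neurons and a neuronal beta-tubulin. Fibroblasts build their intermediate filaments from vimentin.

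Each of 10 groups held 3 libraries, made from total RNA of cells harvested from culture plates. In the transduced experiment, cells carrying Prrx1 grew with doxycycline or without it. In the others, cells received a plasmid for Prrx1 or for Snai1, with controls shared by both, a plasmid for Egr1 or for Jun, with another shared set of controls, or a plasmid for Srebf2, with controls of its own. A control in these experiments means a control plasmid, and the labels name neither the promoters nor the share of cells that took up a plasmid. They do not say whether replicates were separate cultures, so a p-value here speaks of the spread among the libraries and no more.

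Depth ranged over the 30 libraries, as total estimated counts, from 7996355 to 37068611. The 9 libraries of the Egr1 and Jun experiment were the deepest set, at 25329478 to 37068611. Every delivered factor was higher in each library that received or induced it than in its controls, by 1.95 (Prrx1 with doxycycline) to 6.94 (Snai1) on the log2 scale. Of 15 fibroblast markers, 13 to 15 reached 10 counts in each library, with a summed level of 16300 to 29590 CPM (counts scaled to the library total). Of the libraries described next, Egr1 replicate 3 had 20750 CPM and control replicate 2 of the Egr1 and Jun experiment 17030 CPM. The other 7 libraries of that experiment had 17900 to 22380 CPM, so control replicate 2 lay below them all. Both values lie inside the 16300 to 29590 CPM of the 21 libraries of the other experiments. No pair of libraries held identical values.

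A library is said here to stand apart for a gene when the gene has at least 10 estimated counts there and at least 3 times the CPM of the higher of the other 2 libraries of its group. Egr1 replicate 3 stood apart for Krt7, Krt8, Krt18 and Epcam, 4 of the 9 transcripts. Among all genes with 10 or more counts in that library the share was 5.66%, 828 of 14639. Control replicate 2 of the Egr1 and Jun experiment stood apart for Map2, Stmn2, Dcx and, at a far lower level, Krt18. The share there over all genes was 8.25%, 1218 of 14763. Egr1 replicate 1 stood apart for Map2 and Dcx at low counts, beside 1.09% of all genes. No other library stood apart for any of the 9, and the share of all genes in the 27 libraries left ran from 0.228% to 2.68%, the highest in Prrx1 replicate 2 without doxycycline. Fitted changes in the Egr1 and Jun experiment are therefore given with and without Egr1 replicate 3 and control replicate 2.

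**Figure D1:**
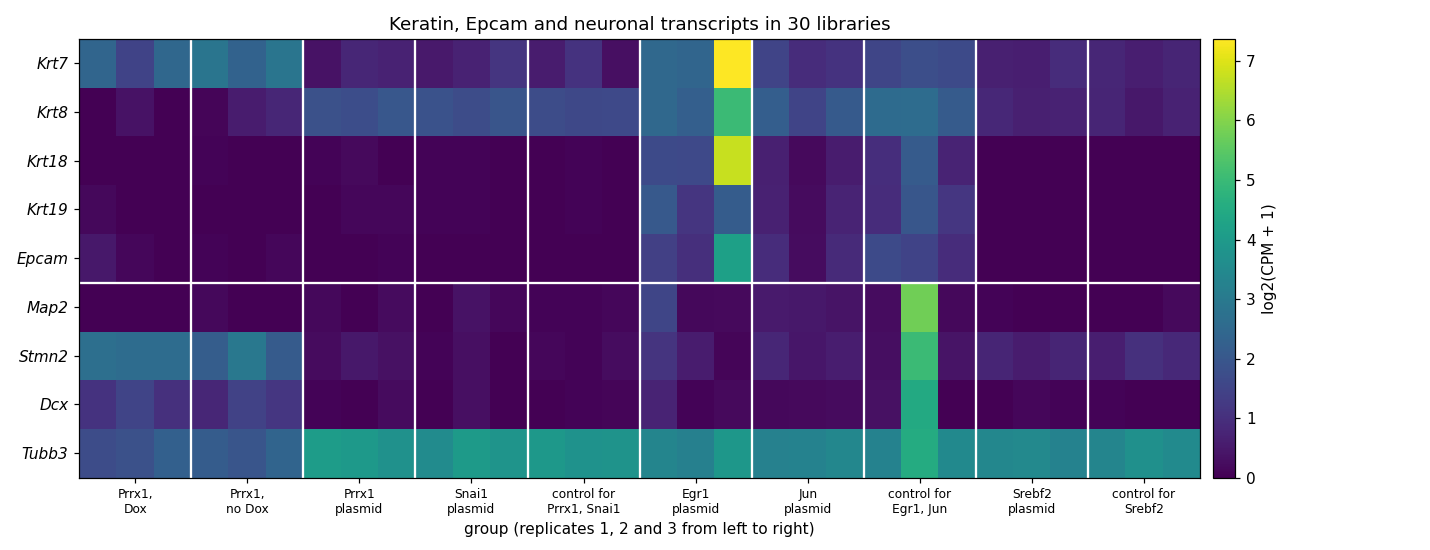
Level of the 9 transcripts in all 30 libraries, as log2 of CPM plus 1 (colour). Columns are libraries in groups of 3, rows are genes. Bright keratin and Epcam cells mark Egr1 replicate 3, where Krt7 reached 165 CPM, and bright neuronal cells mark control replicate 2 of the Egr1 and Jun experiment, where Map2 reached 53.4 CPM.

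Snai1, one of the factors delivered, is known to bind CACCTG letters in promoters of epithelial genes. The sequences just upstream of RefSeq starts are therefore shown for the epithelial genes that stood apart. Of the 9 genes, 7 were found in the RefSeq promoter table of build GRCm38.p6, and the 250 bases before each start were searched on both strands. Some RefSeq starts differ from the gene spans given further down. The Krt7 window lies inside its gene span, and the windows of Krt8, Krt18 and Tubb3 overlap the edge of theirs. Capitals mark CACCTG or its reverse complement.
Krt7, chr15:101412153-101412402, plus strand: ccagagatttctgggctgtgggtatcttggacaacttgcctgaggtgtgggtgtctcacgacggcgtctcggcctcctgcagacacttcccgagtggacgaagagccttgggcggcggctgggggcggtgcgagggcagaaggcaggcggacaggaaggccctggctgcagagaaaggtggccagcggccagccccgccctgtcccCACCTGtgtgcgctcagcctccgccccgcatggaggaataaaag
Krt8, chr15:102004343-102004592, minus strand: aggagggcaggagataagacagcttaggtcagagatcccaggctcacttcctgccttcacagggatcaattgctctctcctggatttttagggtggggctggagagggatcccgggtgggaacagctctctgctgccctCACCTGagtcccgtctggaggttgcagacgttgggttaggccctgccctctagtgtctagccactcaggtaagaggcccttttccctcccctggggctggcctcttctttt
Krt18, chr15:102027966-102028215, plus strand: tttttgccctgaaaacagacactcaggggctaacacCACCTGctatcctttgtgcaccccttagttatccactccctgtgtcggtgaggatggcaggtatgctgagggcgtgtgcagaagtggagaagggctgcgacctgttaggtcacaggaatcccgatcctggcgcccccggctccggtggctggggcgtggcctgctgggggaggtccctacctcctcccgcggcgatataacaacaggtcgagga
Epcam, chr17:87635729-87635978, plus strand: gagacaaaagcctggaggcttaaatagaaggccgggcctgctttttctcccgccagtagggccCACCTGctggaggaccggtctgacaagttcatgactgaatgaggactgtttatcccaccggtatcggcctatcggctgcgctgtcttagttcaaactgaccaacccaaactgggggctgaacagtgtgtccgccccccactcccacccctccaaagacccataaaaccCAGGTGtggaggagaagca

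All 4 windows hold the letters, and Epcam holds them at 2 places, while 17.2% of 32851 such windows in the table do. These 4 genes were picked by their counts, in libraries that received no Snai1 plasmid, so these shares are a description and not a test. None was found in Map2, Dcx or Tubb3. The Egr1 motif GCGNGGGCG, present in 4.7% of windows, occurs once, in Tubb3, where capitals mark it.
Tubb3, chr8:123411303-123411552, plus strand: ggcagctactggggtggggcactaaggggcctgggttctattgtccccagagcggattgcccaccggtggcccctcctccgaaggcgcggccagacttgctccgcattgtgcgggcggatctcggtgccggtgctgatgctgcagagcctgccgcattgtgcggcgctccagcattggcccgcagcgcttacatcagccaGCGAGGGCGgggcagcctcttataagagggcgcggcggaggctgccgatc

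The AP-1 motif TGANTCA, which Jun-containing dimers bind and 6.7% of windows hold, and the sterol element of Srebf2, held by 0.2%, were found in none of the 7 genes. A match is a description of the letters and not a measured binding site. The levels of these genes with each plasmid are given further down.

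Krt7, on chromosome 15 (101411043 to 101430313, plus strand, mm10), had 4.60, 4.30 and 165 CPM in the 3 Egr1 libraries, against 1.89, 2.42 and 2.16 CPM in their controls. The third Egr1 library held 4815 estimated counts of it. The other Egr1 libraries were above every control library, so the groups did not overlap even without replicate 3. With the Jun plasmid Krt7 had 1.86, 0.917 and 1.12 CPM, below all 3 controls. The share of all genes whose groups separate in this way was not counted, for Egr1 or for Jun. Both statements on Krt7 are therefore a description only.

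Krt18 (chromosome 15, 102028180 to 102032027, plus strand), the type I partner of Krt8, had 2.16, 2.06 and 106 CPM in the Egr1 libraries, against 0.938, 3.35 and 0.679 CPM in the controls. It had 0.578, 0.129 and 0.477 CPM in the Jun libraries. Krt8 (chromosome 15, 101996698 to 102004482, minus strand) had 4.65, 3.67 and 31.4 CPM in the Egr1 libraries, against 4.96, 5.09 and 3.37 CPM in the controls. Outside replicate 3, Krt8 in Egr1 libraries lay within the range of the controls, and Jun libraries had 3.59, 1.83 and 3.26 CPM.

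Epcam (chromosome 17, 87635979 to 87651129, plus strand) had 1.62, 1.0 and 17.2 CPM in the Egr1 libraries, against 2.12, 1.80 and 0.896 CPM in the controls. Krt19 (chromosome 11, 100140810 to 100148665, minus strand), which lacks the tail domain of other keratins, did not stand apart: it had 3.15, 1.20 and 3.42 CPM in the Egr1 libraries, against 0.911, 2.96 and 1.27 CPM in the controls. Its highest and second highest libraries, Egr1 replicates 3 and 1, were nearly level, and the third highest was control replicate 2. The Jun libraries had 0.913, 0.193 and 0.835 CPM of Epcam and 0.609, 0.161 and 0.676 CPM of Krt19.

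The proportions of the epithelial transcripts in Egr1 replicate 3 were unlike those of the other libraries of the experiment. There were 31 counts of Krt18 for each count of Krt19, against 0.537 to 1.73 in the other 8 libraries. Krt18 stood at 3.38 counts for each of Krt8, against 0.0702 to 0.657 in those 8, and at 6.16 for each of Epcam, against 0.442 to 2.05. The ratio of Krt7 to Krt18 was 1.55, inside the span of 0.721 to 7.13 of the others. On the per-length scale of TPM (abundance scaled by transcript length), Krt18 led in this library at 125 TPM, before Krt7 at 68.1, Epcam at 30.7, Krt8 at 25.4 and Krt19 at 8.25 TPM.

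**Figure D2:**
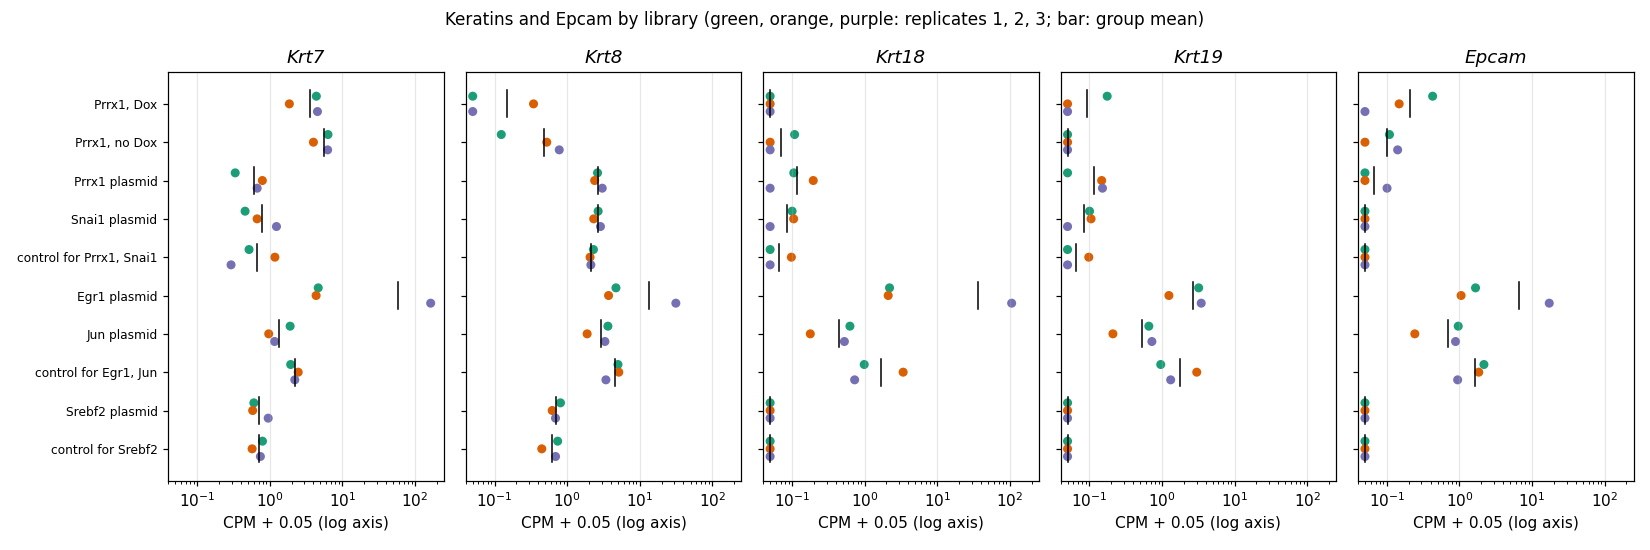
Level of Krt7, Krt8, Krt18, Krt19 and Epcam in every library, as CPM plus 0.05 on a log axis. Points are libraries (green, orange and purple for replicates 1, 2 and 3) and black bars are group means. The purple Egr1 point lies alone to the right for Krt7, Krt8, Krt18 and Epcam, at 165, 31.4, 106 and 17.2 CPM. For Krt18 and Epcam, Jun replicate 2 is the only library of the Egr1 and Jun experiment that overlaps the range of the other experiments.

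Egr1 replicate 3 also drew its Krt7 counts from another annotated transcript. Of 4815 counts, 4684 were assigned to Krt7-202, a transcript annotated as a retained intron, a share of 97.3% (95% Wilson interval 96.8 to 97.7, counting error only). The protein-coding transcript held 2.7% there. In the other 7 libraries of the experiment, without control replicate 2, Krt7-202 held 15.8% of the pooled counts and the coding one 79.9%. In the 21 libraries of the other experiments the shares were 22.4% and 64.4%. Of the 31-base words of Krt7-202, 58.4% do not occur in the coding one, so these 2 transcripts differ in sequence. That comparison did not cover other genes. Of all Krt7 words, 97.7% occur in no other gene, and the remaining words are shared with 2987 genes. Whether reads on Krt7-202 came from elsewhere was not tested. Epcam likewise had 24% of its counts (20.5 to 27.9) on Epcam-203, a processed transcript without an annotated reading frame, against 0.5% in those 7 libraries. The coding transcript of Krt19 held 27.0% of its counts there, against 71.6%. In control replicate 2 Krt7-202 held 42.0% (31.1 to 53.8) of only 69 counts. Krt8 and Krt18 have 1 annotated transcript each.

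The genes that stood apart with the keratins in Egr1 replicate 3 were mostly pseudogenes. Of the 828 genes, 507 (61.2%) are annotated as pseudogenes, while pseudogenes made up 7.39% of all genes with 10 or more counts there. Together the 828 genes held 0.299% of the library's counts. Of 50 further epithelial genes, listed with earlier results of these data known, 11 stood apart. Cldn3, Cldn7 and Marveld3 of the tight junction were among them, with the splicing regulators Esrp1 and Esrp2 and the transcription factors Ehf and Elf3. The rest of the 11 were the protease St14, the integrin Itgb6, and Mal2 and Perp. These 11 are 22.0% of the list and 29.7% of its 37 genes with 10 or more counts, beside 5.66% of all such genes. Esrp1 had 6.56 CPM there, against 0.516 to 0.539 CPM in the other Egr1 libraries, and Mal2 had 7.01 CPM, against 0.380 to 0.681 CPM. The summed level of these 50 genes was 302 CPM, against 179 to 247 CPM in the 7 libraries and 144 to 221 CPM in the 21 others. Cdh1, the cadherin of epithelial junctions, was not among the 11. Of 54 further neuronal genes, 1 stood apart, the calcium-binding protein Calb2. Of 7 glial markers, Gfap stood apart, with 460 counts, and of 6 liver and gut markers, Vil1. Other genes with large ratios were the pseudogenes Gpx2-ps1, at 19.8 CPM, Gm6565, Gm5487 and Gm5391, and the skin keratin Krt79, at 37.8 CPM and 1106 counts, against at most 0.227 CPM in the other Egr1 libraries. The part these genes play in the keratin values was not tested.

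Map2 (chromosome 1, 66175273 to 66442583, plus strand) had 1.90, 0.109 and 0.137 CPM in the Egr1 libraries and 0.456, 0.386 and 0.318 CPM in the Jun libraries, against 0.193, 53.4 and 0.123 CPM in their 3 controls. It was high in control replicate 2 and, far below that, in Egr1 replicate 1. Stmn2 (chromosome 3, 8509360 to 8561606, plus strand) had 1.14, 0.489 and 0.0688 CPM in the Egr1 libraries and 0.730, 0.354 and 0.517 CPM in the Jun libraries, against 0.221, 31.6 and 0.309 CPM in the controls, where replicate 2 held 896 counts. Dcx (chromosome X, 143855842 to 143933311, minus strand) had 0.653, 0.0544 and 0.138 CPM in the Egr1 libraries and 0.122, 0.130 and 0.159 CPM in the Jun libraries, against 0.249, 21.4 and 0 CPM in the controls. A count of 0 in the libraries of this experiment allows up to 0.0815 to 0.119 CPM, by library. Outside control replicate 2 the highest Dcx level of the experiment was 0.653 CPM, in Egr1 replicate 1, or 23 counts.

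Tubb3 (chromosome 8, 123411424 to 123422015, plus strand) was the exception among the 4, since it was measured well above 1 CPM in every library. In the Egr1 libraries it had 9.28, 8.28 and 14.0 CPM and in the Jun libraries 8.52, 8.62 and 9.66 CPM, against 8.61, 22.3 and 10.4 CPM in the controls. Its highest library was again control replicate 2, by less than the 3-fold margin. Per length, in that library, Stmn2 led at 22.7 TPM, with Tubb3 at 17.6, Map2 at 16.9 and Dcx at 4.11 TPM.

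**Figure D3:**
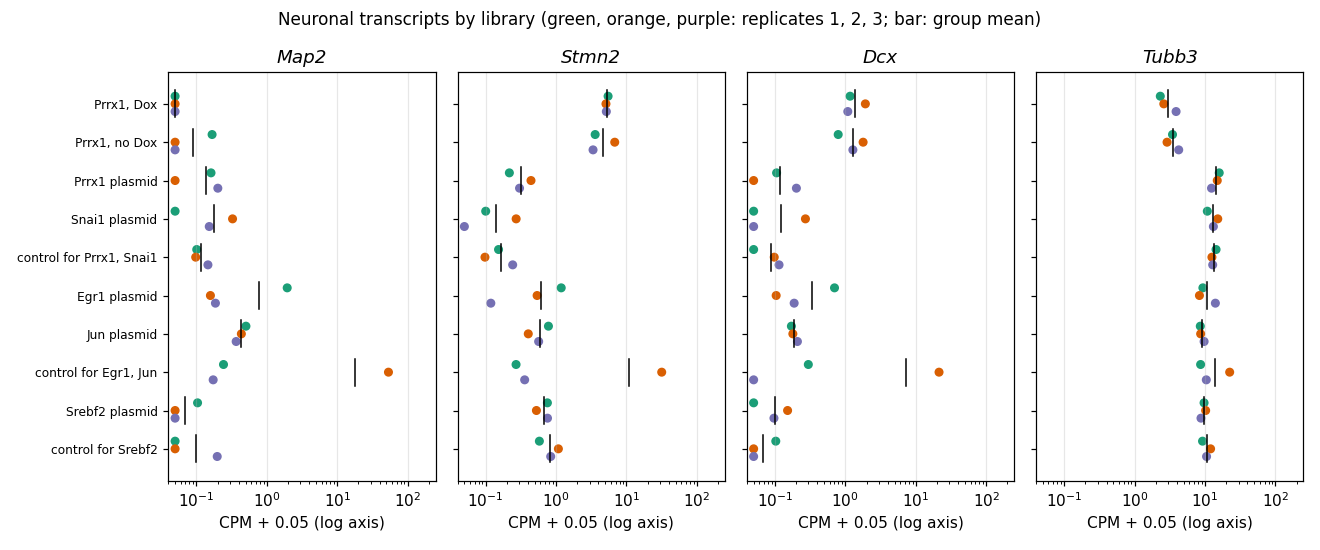
Level of Map2, Stmn2, Dcx and Tubb3 in every library, as CPM plus 0.05 on a log axis. Points are libraries (green, orange and purple for replicates 1, 2 and 3) and black bars are group means. The orange control point of the Egr1 and Jun experiment lies far to the right for Map2, Stmn2 and Dcx, at 53.4, 31.6 and 21.4 CPM, while the transduced libraries at the top are high in Stmn2 and Dcx and low in Tubb3.

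The neuronal reads of control replicate 2 lay mainly on protein-coding transcripts. The coding transcript of 5195 bases held 43.8% of its 1514 Map2 counts (Wilson 95% interval 41.3 to 46.3) and that of 6258 bases held 44.5% (42.0 to 47.0). In the 7 libraries of the experiment other than this and Egr1 replicate 3, these held 0.0% and 25.9% of far fewer counts. The coding transcript of Stmn2 held 99.5% of the Stmn2 counts, and the Dcx transcript of 9074 bases held 89.8% of those of Dcx (87.1 to 91.9).

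In control replicate 2, 97.6% of the 1218 genes that stood apart were protein-coding and 2.38% were pseudogenes, and together they held 0.405% of the counts. Of the 54 further neuronal genes, 40 stood apart (74.1%, or 78.4% of the 51 with 10 or more counts, beside 8.25% of all such genes). They include the synaptic vesicle proteins Syp, Syt1, Syn1 and Syn2, the neurofilaments Nefl, Nefm, Nefh and Ina, the axonal proteins Gap43 and Mapt, and the kinesins Kif5a and Kif5c. Genes of both main transmitters were among them, Gad1 and Slc32a1 of inhibitory neurons and Slc17a6, Slc17a7 and Tbr1 of excitatory ones. Mapt had 43.9 CPM there, against 1.95 to 2.37 CPM in the other controls, Crmp1 27.1 CPM, against 0.0828 to 0.185 CPM, and Gad1 8.14 CPM, against 0.0557 to 0.124 CPM. The summed level of the 54 genes was 1219 CPM, against 582 to 654 CPM in the 7 libraries and 653 to 1130 CPM in the 21 others. Of the 50 further epithelial genes, 1 stood apart, Cldn1. Other genes with large ratios were Gpm6a, a neuronal membrane glycoprotein with 1137 counts, Dner, Grin2b, Syt4 and Hecw1.

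Of 7 glial markers, Gfap, Aqp4 and Sox10 stood apart in control replicate 2. The summed level of the 7 was 17.7 CPM there and higher, at 25.6 CPM, in Egr1 replicate 3, where 1 neuronal list gene stood apart, against 7.28 to 12.2 CPM in the 7 libraries and 2.49 to 8.14 CPM in the 21 others. Ttr, the transthyretin of choroid plexus and liver, had 951 counts, and the 6 liver and gut markers summed to 39.4 CPM. Alb, the liver's albumin, had 0.211 CPM. Of the fibroblast markers, Fap stood apart too. Of the muscle, endothelial and trophoblast markers none stood apart in this library or in Egr1 replicate 3, and of 6 immune markers Adgre1 did in this one. The part of these genes in the neuronal values was not tested, and in bulk RNA a smaller number of cells and less RNA per cell cannot be told apart.

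Egr1 replicate 1 carried a smaller and mixed set. Map2 had 67 counts and Dcx 23 there. Of the 54 neuronal genes, 10 stood apart, among them Gap43, Syt1 and Crmp1, and of the 50 epithelial genes, 5 did, among them Krt14 and Krt17 of stratified epithelia, Trp63 and Pkp1. These sets are 18.5% and 10% of the lists. Of the list genes with 10 or more counts they are 25.6% and 12.8%, beside 1.09% of all such genes. Krt14 had 7.61, 0.462 and 0.684 CPM in the Egr1 libraries and 0.396, 0.0643 and 0 CPM in the Jun libraries, against 0.0276, 0.141 and 3.09 CPM in the controls. Genes of stratified epithelia were thus not limited to this library. Control replicate 3 stood apart for Krt14, Krt5, Marveld3 and Pkp1, beside 0.477% of all genes, and Jun replicate 1 for Krt14 and Cldn4, beside 0.883%. Krt6a and Krt6b, keratins of activated epidermis, and Krt75 were among the other genes with the largest ratios in Egr1 replicate 1. The simple-epithelium transcripts Krt8, Krt18 and Epcam did not stand apart in it.

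**Figure D4:**
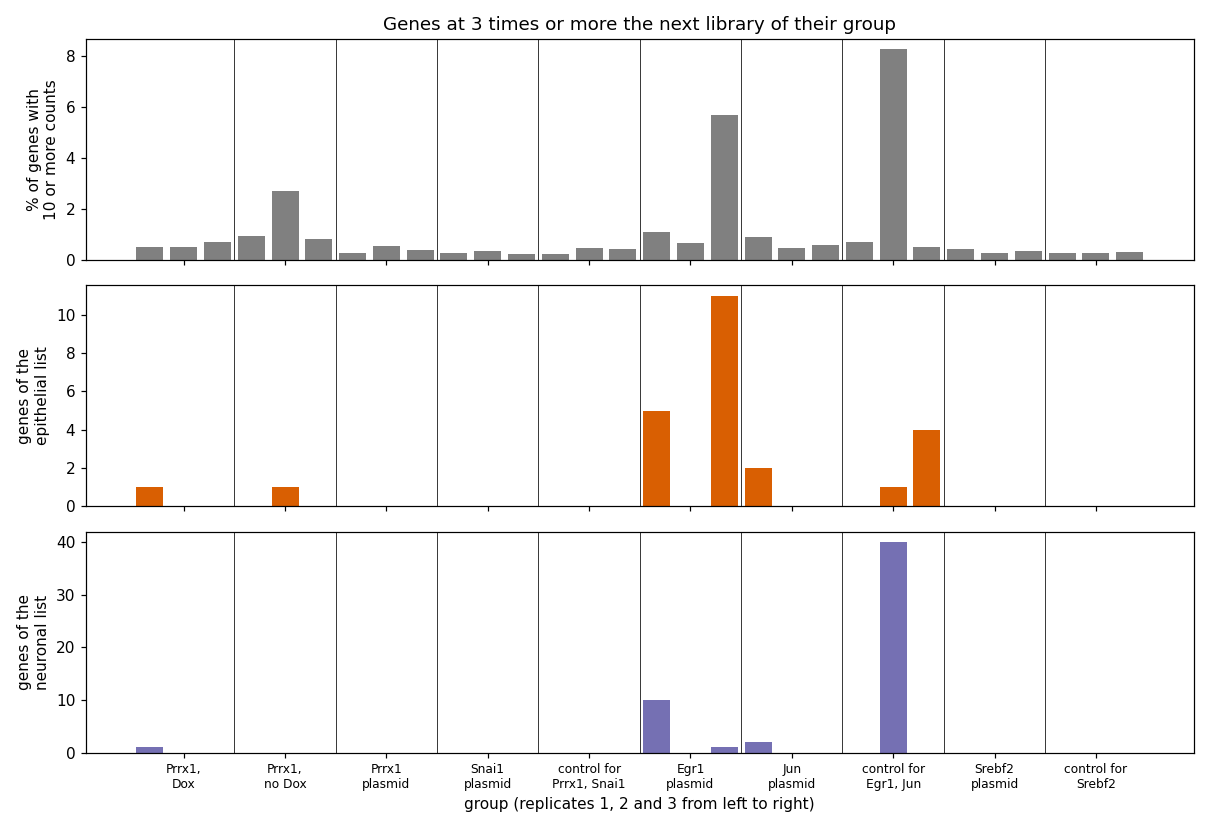
Genes that stood apart in each library: top, percent of genes with 10 or more counts; middle, number of 50 further epithelial genes; bottom, number of 54 further neuronal genes. Bars are libraries in groups of 3. Egr1 replicate 3 has 5.66% and 11 epithelial genes, and control replicate 2 of the Egr1 and Jun experiment 8.25% and 40 neuronal genes.

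Low levels of the epithelial transcripts ran through the whole Egr1 and Jun experiment. Krt18 had 4 to 3104 counts in its 9 libraries and at most 3 counts in each of the 21 others. Krt19 had 5 to 111 counts in the 9 and at most 2 in each of the 21. Epcam had 6 to 504 counts in the 9 and at most 3 in each of the 21. Without Egr1 replicate 3 and control replicate 2, the other 7 libraries still held 4 to 76 counts of Krt18, 5 to 111 of Krt19 and 6 to 77 of Epcam. A count of 0 in the 21 libraries allows 0.141 to 0.377 CPM, and the lowest Egr1 and Jun library, Jun replicate 2, had 0.129 CPM of Krt18, so the 2 sets of libraries do not separate at that depth for that library. The experiment differs from the others in depth and in every condition at once, and these cannot be told apart.

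Krt8 was spread more widely than its partner. In the Prrx1 and Snai1 transfections it had 2.57, 2.34 and 2.99 CPM with Prrx1 and 2.62, 2.27 and 2.82 CPM with Snai1, against 2.25, 2.02 and 2.07 CPM in the controls. Krt18 was at most 0.146 CPM in each of those 9 libraries. Of the 31-base words of Krt8, 67.7% occur in no other gene, so its reads may be shared with near-identical copies and its level is uncertain; its annotated pseudogene Krt8-ps held at most 4.3 counts in any library. For Krt18 that share is 88.6%. In the Srebf2 libraries Krt8 had 0.758, 0.572 and 0.641 CPM, against 0.690, 0.397 and 0.642 CPM in their controls, and the groups overlapped.

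The transduced cells had more Stmn2, Dcx and Krt7 than the Prrx1, Snai1 and Srebf2 transfections, in each of their 6 libraries, and less Tubb3. Stmn2 had 5.43, 5.06 and 5.13 CPM with doxycycline, against 3.54, 6.76 and 3.30 CPM without. Dcx had 1.12, 1.88 and 1.03 CPM with doxycycline, against 0.743, 1.74 and 1.23 CPM without. Krt7 had 4.33, 1.81 and 4.49 CPM with doxycycline, against 6.29, 3.94 and 6.22 CPM without. For each of these genes the doxycycline groups overlapped. In the 15 libraries of the Prrx1, Snai1 and Srebf2 transfections Stmn2 had a median of 0.254 CPM and a highest value of 1.03 CPM, and Krt7 a median of 0.620 CPM. Dcx was at most 0.222 CPM in those 15, and Tubb3 lay between 8.72 and 15.9 CPM. In the transduced cells Tubb3 had 2.27, 2.55 and 3.83 CPM with doxycycline and 3.41, 2.84 and 4.18 CPM without. Map2 was at 0 in 5 of the 6 transduced libraries. The transduced cells share no control with the transfections, so this difference has no test here. Of the 31-base words of Krt7, Stmn2 and Dcx, 97.7%, 98.6% and 99.5% occur in no other gene. The remaining words are shared with 2987, 2504 and 2486 genes, so some of these reads may come from elsewhere. The part of shared words in these low levels was not tested.

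Across the 30 libraries, the genes whose log2(CPM + 1) followed each transcript most closely were found among 12420 genes with a mean of at least 1 CPM. Map2 was followed by Crmp1 (r = 0.992), Kif1a and Kif5c, Stmn2 by genes that include Atp8a1 (r = 0.941) and Mapt, and Dcx by Mapt (r = 0.958), Sept3 and Rtn1. Krt7 was followed by pseudogenes, Gm5835 first (r = 0.963), and Krt18 by Gm12461 (r = 0.955). Krt8 was followed by the sodium pump subunit Atp1b1 (r = 0.882) and Tubb3 by Enkd1 (r = 0.935). These correlations share libraries and depth and rest in part on the 2 libraries that stand apart: without them r was 0.902 for Map2 with Crmp1, 0.628 for Map2 with Kif5c and 0.889 for Krt7 with Gm5835. Krt19 and Epcam averaged under 1 CPM and were not compared.

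For the effect of the Egr1 plasmid, the fitted change of the epithelial transcripts moved with replicate 3 and, for Krt18, also with control replicate 2. With all libraries the log2 fold change of Krt7 over the controls was 4.69 (SE 1.73), of Krt18 4.47 (1.85), of Krt8 1.51 (0.873) and of Epcam 1.99 (1.17). Without Egr1 replicate 3 and control replicate 2 these were 1.09 (0.293) for Krt7, 1.33 (0.490) for Krt18, -0.05 (0.281) for Krt8 and -0.26 (0.577) for Epcam. Krt19 was at 0.56 (0.574) with all libraries and at 0.95 (0.544) without the 2. Without Egr1 replicate 3 alone, Krt7 was at 1.0 (0.302), Krt18 at 0.33 (0.695), Krt8 at -0.14 (0.286) and Epcam at -0.33 (0.577). Krt8 and Epcam changed sign both ways, and Krt18 without replicate 3 was smaller than its SE.

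The neuronal transcripts turned on control replicate 2. With all libraries Map2 was at -4.62 (SE 2.31) in Egr1 over controls and Stmn2 at -4.23 (2.03). Without the 2 libraries Map2 was at 2.58 (0.995) and Stmn2 at 1.56 (0.644), so both changed sign. Without control replicate 2 alone, Map2 was at 2.10 and Stmn2 at 1.06. Among the Egr1 libraries Map2 was high in replicate 1, at 1.90 CPM, and low in the other pair, at 0.109 and 0.137 CPM. Tubb3 was at -0.42 (0.377) with all libraries and at -0.15 (0.135) without the 2, and Dcx did not pass the filter in this experiment. The other 8 of the 9 passed it.

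**Figure D5:**
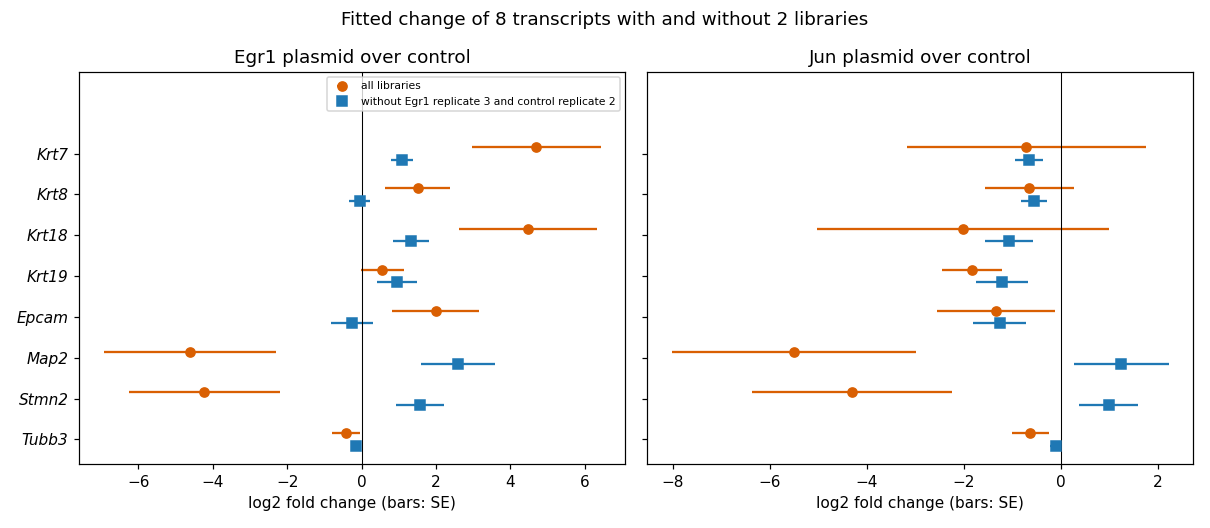
Fitted log2 fold change of 8 transcripts, Egr1 plasmid over control (left) and Jun plasmid over control (right), with bars of 1 SE. Orange circles use all libraries and blue squares leave out Egr1 replicate 3 and control replicate 2. For Map2 the circle lies at -4.62 and the square at 2.58 in Egr1, and at -5.50 and 1.24 in Jun.

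With the Jun plasmid the same control library set the neuronal values. Map2 was at -5.50 (SE 2.52) with all libraries and at 1.24 (0.979) without the 2, and Stmn2 at -4.31 (2.06) and at 0.98 (0.615). The epithelial transcripts were lower in Jun libraries than in controls both ways: Krt19 at -1.84 (0.615) and -1.21 (0.537), Krt18 at -2.02 (3.02) and -1.07 (0.489), Epcam at -1.34 (1.22) and -1.26 (0.546) and Krt7 at -0.72 (2.46) and -0.66 (0.283). For Krt7, Krt18 and Krt19 each Jun library lay below each control library, and for Krt8 and Epcam the groups overlapped. The share of all genes without such overlap was not counted, so this is a description only. The 2 comparisons share their controls.

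The further genes of both lists were also read through the fits. The lists leave out the 9 but were chosen with earlier results of these data known. With Egr1, edgeR called 0 of 34 tested epithelial genes and 0 of 35 neuronal ones, beside 0.323% of all 14539 genes tested. Unadjusted p-values were under 0.05 for 8 higher and 1 lower epithelial and 0 higher and 2 lower neuronal genes, and DESeq2 called 1 epithelial gene higher and 0 neuronal. The median log2 fold change was 0.67 over the epithelial and -1.60 over the neuronal genes, against 0.00 over all genes. Without the 2 libraries the medians were 0.22 and 0.27, and the count of all genes called was 355 (2.42%) in place of 47, of which 45 were shared. Kif5a, a neuronal kinesin, was then called higher, with 9.08, 6.84 and 5.98 CPM in the Egr1 libraries, against 4.0, 25.2 and 5.13 CPM in the controls, of which the third Egr1 value and the second control value were left out (edgeR log2 fold change 0.76, adjusted p = 0.0287).

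With Jun, edgeR called 1 of 34 epithelial genes lower and 0 higher, and 0 of 35 neuronal genes, beside 0.956% of all genes. Unadjusted edgeR p-values were under 0.05 for 0 higher and 7 lower epithelial and 0 higher and 4 lower neuronal genes. DESeq2 called 2 epithelial genes and 1 neuronal gene lower. The median log2 fold change was -0.72 over the epithelial and -1.26 over the neuronal genes, against -0.01 over all genes. Without Egr1 replicate 3 and control replicate 2 the medians were -0.77 and 0.17. Evpl, the envoplakin of the cornified envelope, had 0.669, 1.83 and 1.15 CPM in the Jun libraries, against 4.50, 4.51 and 3.18 CPM in the controls (edgeR log2 fold change -1.75, SE 0.331, adjusted p = 0.0257). That call ended without any one of Jun replicates 1 and 3 and control replicates 1, 2 and 3 (adjusted p 0.0542 to 0.164). Without the 2 libraries that stand apart it held (adjusted p = 0.0108), and 298 genes (2.03%) were called in place of 139, of which 130 were shared. Stmn4, a stathmin of neurons, was then called lower, with 0.0913, 0.515 and 0.278 CPM in Jun libraries, against 2.18, 14.3 and 1.54 CPM in the controls (edgeR log2 fold change -2.68, adjusted p = 0.00406). Klf5 (-0.42) was then lower and Ncam1 (0.30) higher.

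With the Snai1 plasmid, 3 of the 9 transcripts passed the filter. Krt7 had 0.407, 0.620 and 1.19 CPM with Snai1, against 0.469, 1.13 and 0.243 CPM in the controls. Tubb3 had 10.7, 15.1 and 13.1 CPM, against 14.3, 12.5 and 12.8 CPM. Both overlapped. Krt8 was higher in all 3 Snai1 libraries than in the controls, by a fitted 0.29 (SE 0.202). The share of all genes without such overlap was not counted, so this is a description only. Of 13 further epithelial genes tested edgeR called 0, beside 1.62% of 13110 genes, with unadjusted p under 0.05 for 1 higher and 1 lower one and 0 in DESeq2, and their median was -0.16 against 0.00 over all genes. Of 19 neuronal genes 1 was called, Stmn4, lower with 0.0504, 0.222 and 0.0513 CPM, against 1.08, 1.92 and 2.17 CPM in the controls (edgeR log2 fold change -3.95, SE 0.532, adjusted p = 0.00252). DESeq2 called 0 of the 19.

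With the Prrx1 plasmid 3 of the 9 transcripts passed. Krt8 was higher in all 3 Prrx1 libraries than in the controls shared with Snai1, by a fitted 0.32 (SE 0.202), again a description only. Krt7 was at -0.14 (0.581), and its groups overlapped. Tubb3 had 15.9, 14.9 and 12.3 CPM, against 14.3, 12.5 and 12.8 CPM in the controls. Among 19 neuronal genes 4 rose and 1 fell, beside 3.0% of 13110 genes called. Vgf, a neuropeptide precursor, had 10.7, 9.46 and 13.5 CPM with Prrx1, against 4.94, 4.08 and 4.28 CPM (edgeR log2 fold change 1.34, SE 0.168, adjusted p = 0.00114). Tubb4a, another neuronal beta-tubulin, had 2.35, 3.37 and 4.11 CPM, against 0.720, 0.960 and 1.40 CPM (log2 fold change 1.67, edgeR adjusted p = 0.00925, and 0.0637 without Prrx1 replicate 3). Rbfox3, a splicing factor of mature neurons, had 43 counts with Prrx1 and 0 in the controls, at least 15.1-fold higher against 3 counts over the group (edgeR adjusted p = 0.00875, and 0.0516 and 0.0624 without Prrx1 replicates 2 and 3). Kif5a rose too (0.92, edgeR adjusted p = 0.0283), a gene beyond the naming rule that was added after its value was seen. Stmn4 fell, with 0.279, 0.146 and 0.254 CPM against 1.08, 1.92 and 2.17 CPM (log2 fold change -2.90, edgeR adjusted p = 0.00546). Of 13 epithelial genes 1 rose, Evpl (1.34, edgeR adjusted p = 0.0394), a call that ended without any one of the 3 Prrx1 libraries or of control replicates 2 and 3 (0.0781 to 0.17).

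In the transduced cells 4 of the 9 transcripts passed. The fitted log2 fold changes with doxycycline were -0.67 (SE 0.376) for Krt7, 0.21 (0.318) for Stmn2, 0.10 (0.534) for Dcx and -0.28 (0.355) for Tubb3. Of 16 further epithelial genes 1 rose and 3 fell, beside 6.19% of 13633 genes called. The integrin subunit Itgb4 had 32.8, 35.1 and 34.1 CPM with doxycycline, against 13.9, 13.9 and 15.7 CPM without (edgeR log2 fold change 1.21, SE 0.123, adjusted p = 0.000129). Pkp2, a desmosomal plakophilin, had 6.17, 5.59 and 4.71 CPM, against 13.7, 15.03 and 10.6 CPM (-1.28, edgeR adjusted p = 0.00425). The keratin Krt80 fell too, with 17.1, 15.8 and 16.0 CPM, against 30.2, 36.5 and 26.8 CPM (-0.96, edgeR adjusted p = 0.00193), and so did the factor Klf5 (-0.70, adjusted p = 0.0219), whose call ended without any one of the doxycycline libraries or replicate 1 without doxycycline (0.0532 to 0.122). Of 21 neuronal genes 1 rose and 1 fell. Dclk1, a doublecortin-like kinase and relative of Dcx, averaged 129 ± 6.73 CPM with doxycycline and 70.5 ± 3.50 CPM without (SD, n = 3 each; edgeR log2 fold change 0.85, adjusted p = 6.84e-05). Dpysl3 fell by 0.35 on the log2 scale (edgeR adjusted p = 0.0143), which lost its call when doxycycline replicate 2 or 3 was left out, or replicate 3 without doxycycline (0.0517 to 0.122).

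With the Srebf2 plasmid 4 of the 9 transcripts passed. Krt18, Krt19 and Epcam were at 0 counts in all 6 libraries. Krt7 had 0.554, 0.532 and 0.902 CPM with Srebf2, against 0.744, 0.522 and 0.693 CPM in the controls. Tubb3 had 9.64, 10.2 and 8.72 CPM, against 9.18, 11.9 and 10.5 CPM, and both overlapped. Of 13 epithelial genes edgeR called 0, beside 17.3% of 12730 genes, with unadjusted p under 0.05 for 0 higher and 3 lower ones and 1 called lower by DESeq2. Of 18 neuronal genes 1 rose and 2 fell. Stmn4 had 0.325, 0.239 and 0.236 CPM, against 1.75, 2.73 and 2.02 CPM (edgeR log2 fold change -3.00, SE 0.374, adjusted p = 9.72e-05), and that call held when any library was left out. Kif5a was lower by a log2 fold change of -0.67 (edgeR adjusted p = 0.0362) and the adhesion molecule Ncam1 higher by 0.21 (adjusted p = 0.0403). The Kif5a call ended without any one of Srebf2 replicates 1 and 2 and control replicates 1 and 2 (0.0815 to 0.132), and the Ncam1 call without any library other than control replicate 3 (0.0614 to 0.147).

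A list of 26 relatives of the 9, mostly genes of microtubules and intermediate filaments, of which 6 are also on the neuronal list, held 23 or 24 tested genes in each comparison. With doxycycline 2 rose and 3 fell, beside 6.19% of all genes called, among them Dclk1, given above, and the axonal microtubule protein Map1b (-0.43, edgeR adjusted p = 0.00629, and 0.0798 without doxycycline replicate 2). With Srebf2 2 rose and 6 fell, beside 17.3% of all genes, among them the cytolinker Plec (-0.31, edgeR adjusted p = 0.00197), whose call held when any library was left out. With Prrx1 1 rose and 1 fell, Tubb4a and Stmn4, beside 3.0% of all genes, and with Snai1 Stmn4 alone fell, beside 1.62%. With Egr1 edgeR called 0, beside 0.323% of all genes, with unadjusted p under 0.05 for 3 higher and 3 lower ones and 0 in DESeq2, and with Jun 0, beside 0.956%, with 2 higher and 2 lower and 1 lower in DESeq2.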

How the data were processed

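RNA-seq of 30 libraries was analysed from the transcript tables the authors deposited. These hold estimated counts and TPM per transcript, which the submitters' processing notes credit to kallisto 0.43.0 and mm10. Which annotation release was used is not given in the sources used here. Each library has 118491 targets, among them 2 added sequences (GFP and mScarlet). Targets were matched to genes with GENCODE M21, and 1673 did not match (0.605% to 0.694% of counts) and were left out. Estimated counts were summed per gene; CPM used the library totals. kallisto divides reads shared between similar transcripts, which touches keratin copies and pseudogenes most.

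The members and all gene lists were chosen with earlier results of these data known. Estimated counts were rounded and tested with edgeR 4.0.16 (quasi-likelihood, TMM, Benjamini-Hochberg adjustment at 0.05), fitting each experiment with its own groups. SE is the absolute log2 fold change divided by the square root of the F statistic of that test. Groups fitted together share an estimate of the spread, so the SE of a Jun change also carries the spread of the Egr1 libraries. The filter (filterByExpr) asked for the CPM of about 10 counts in as many libraries as the smallest group, and 15 counts in all. DESeq2 1.42.0, RLE scaling, other filters, a replicate block and leaving out libraries were alternatives. On simulated data with 200 genes changed 2-fold, the share recovered was 65.0% (doxycycline), 77.0% (Prrx1), 79.0% (Snai1), 69.0% (Egr1), 67.5% (Jun) and 88.0% (Srebf2), with 10 to 15 false calls. R 4.3.3, limma 3.58.1, Python 3.11.15, pandas 2.3.3 and NumPy 2.4.6 were used.

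From each list the called genes with the largest changes were named, up to 4 a list and comparison. Other genes that stood apart were named by ratio to the next library, among those with at least 50 counts. Motifs were searched in RefSeq promoter windows of GRCm38.p6. Intervals and count floors (3 counts) cover counting error only. Depth was 7996355 to 37068611 estimated counts. Some genes that these rules would name are not reported here.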

Additional observations from a re-analysis of the deposited data

How the results depend on the processing

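Numbers of genes called by edgeR depended on the settings, and the cause was not tested. Of all genes, doxycycline gave 1326 with no filter, Prrx1 670 with DESeq2 and 597 with no filter, Snai1 546 and 440, Egr1 210 with DESeq2, 23 with the replicate block and 355 without both libraries that stand apart, and Jun 520 with DESeq2, 252 with a filter of 5 CPM, 71 with the block and 298 without both. Leaving out 1 library gave 335 to 1250 (doxycycline), 106 to 2639 (Prrx1), 46 to 3062 (Snai1), 10 to 102 (Egr1), 29 to 94 (Jun) and 996 to 2329 (Srebf2). Epithelial list calls became 0 for Prrx1 at 5 CPM, 1 for Egr1 with DESeq2, 2 for Jun with DESeq2 or without both, 0 for Jun at 5 CPM or with the block, and 1 for Srebf2 with DESeq2, no filter or the block. Neuronal list calls became 2 for Prrx1 and 1 for Srebf2 at 5 CPM, 0 for Snai1 with DESeq2 or at 5 CPM, 1 for Egr1 without both, and 1 and 2 for Jun with DESeq2 and without both. With 1 library left out, epithelial calls ranged over 0 to 2 (Prrx1), 0 to 1 (Snai1, Egr1 and Jun) and 0 to 2 (Srebf2), and neuronal calls over 1 to 2 (doxycycline), 2 to 6 (Prrx1), 1 to 4 (Snai1), 0 to 1 (Jun) and 1 to 3 (Srebf2). At 2 times the next library, Krt7 stood apart in 2 libraries, Krt19 in 1, Stmn2 in 2 and Tubb3 in 1; at 30 counts, Dcx did in 1. At 1 TPM, 1 library held Dcx, in place of 6 at 1 CPM. Without both libraries, which was chosen after seeing the data, Krt8, Epcam, Map2 and Stmn2 changed sign in Egr1 and Map2 and Stmn2 in Jun. Same-numbered libraries did not deviate together throughout (correlations -0.227 to 0.224), and the main fits did not pair them. This does not exclude a pairing within an experiment: the correlations were 0.052 to 0.147 in the transduced cells and -0.188 to 0.224 with Prrx1 and Snai1 plasmids. The block gave 843 genes for doxycycline, 401 for Prrx1, 290 for Snai1 and 2295 for Srebf2, and the Jun call of Evpl ended under it. Depth limits the keratins outside the Egr1 and Jun experiment, where 3 counts are 0.141 to 0.377 CPM.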

Other observations

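The following genes were chosen after their values were seen. Transcripts of other tissues were also present in several libraries of the Egr1 and Jun experiment. Sftpc, the surfactant protein C of lung alveoli, had 0.227, 2.96 and 19.2 CPM in the Egr1 libraries and 0.243, 0.0322 and 0 CPM in the Jun libraries, against 10.5, 13.8 and 0.0618 CPM in the controls. It had at most 2 counts in each of the 21 other libraries. Gfap, the filament protein of astrocytes, had 0.454, 0.761 and 15.7 CPM in the Egr1 libraries and 2.04, 0.643 and 3.26 CPM in the Jun libraries, against 0.138, 3.1 and 0.432 CPM in the controls. Sftpc and Gfap were thus highest in Egr1 replicate 3, the library high in Krt7 and Krt18.

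Ttr had 0.511, 0 and 0 CPM in the Egr1 libraries and 0.852, 1.38 and 0 CPM in the Jun libraries, against 0.497, 33.5 and 0.278 CPM in the controls, and 0 counts in each of the 21 others. Hbb-bs, a beta-globin of red blood cells, had 2 to 65.5 counts in the 9 libraries and 0 in the 21. Alb had at most 6 counts, Ins2 at most 3 and Umod 0 in the 9. Scgb1a1 did not follow Sftpc, with 55 counts in control replicate 3, where Sftpc had 2, and 3 in Egr1 replicate 3. Myh6 reached 0.396 CPM in the 9 and 0.558 CPM in the 21, and Prm1 0.284 and 0.49 CPM. Cd74 reached 3.98 CPM in the 9 and 0.954 CPM in the 21. Which of these rest on the same source was not tested.

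Stmn4 was the neuronal list gene called lower with Prrx1, Snai1 and Srebf2, and with Jun once both libraries that stand apart were left out. It was at 0 counts in all 6 transduced libraries. With Egr1 it had 1.84, 1.52 and 1.95 CPM, against 2.18, 14.3 and 1.54 CPM in the controls. The Prrx1 and Snai1 comparisons share their controls.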
